A study of Mus musculus with 10 samples.

Results

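The cytosolic ribosomal protein genes were described in mouse liver hepatocytes from animals given an oncogene and a liver toxin. The libraries were labelled EP300 KO or EP300 WT for the coactivator gene Ep300, and their titles begin with HCC (hepatocellular carcinoma). The genes were found by symbol, with at least 10 counts in at least 2 libraries. They were protein-coding genes whose symbol begins with Rpl or Rps followed by a digit, p0, p1, p2 or sa. Ribosomal S6 kinases and pseudogenes were left out. Of 102 protein-coding symbols of that form, 10 kinases and 6 pseudogene symbols were left out, which gave 86 candidates and 83 members, 49 of the large subunit (Rpl) and 34 of the small subunit (Rps). The count table held 55385 identifiers, of which 14200 were tested. Members were thus chosen by their symbol and counts, although the family was proposed with earlier results of these data known. All 83 members had at least 10 counts in all 4 libraries. Rpl24 lay closest inside the minimum, with 14 and 12 counts in the EP300 WT libraries and 15 and 11 in the EP300 KO libraries. The 3 candidates outside it were the paralogs Rpl10l, with 0 counts in all 4 libraries, Rpl39l and Rpl3l, both with at most 1 count in any library. The symbol rule also took in Rps19bp1, which codes for a protein that binds RPS19 and is not part of the ribosome, and it left out genes such as Fau and Rack1, whose products are.

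All 4 libraries came from EP300f/f mice of a strain given as C57BL/6J 129SV, with ages not stated. All were fed DDC, which damages the biliary tree and the parenchyma, and received a pT3-cMet plasmid by hydrodynamic injection into the tail vein, for 5 months. The EP300 KO group (2 libraries) was injected with AAV-TBG-Cre and the EP300 WT group (2 libraries) with AAV-TBG-GFP, both driven by the hepatocyte-directed TBG promoter, so a deletion would be limited to the cells the virus reached. Liver cells were sorted after perfusion, the labels mention pooled sequencing, and nothing ties a library to an animal, so p-values here measure only the spread between these libraries. The EP300 WT libraries held 18575701 and 18831671 counts, the EP300 KO libraries 17709799 and 17811489.

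Ep300 itself did not separate the groups in the direction of the labels. It had 62.3 and 57.9 CPM (counts after scaling for library size) in the libraries labelled EP300 WT, and 73.7 and 72.3 CPM in those labelled EP300 KO. Both KO-labelled libraries were above both WT-labelled ones (log2 fold change 0.28 ± 0.07 SE, edgeR quasi-likelihood adjusted p = 0.00498, and 0.128 without EP300 WT replicate 2). A count over the whole gene does not show whether a floxed exon was lost, so every direction below refers to libraries by their labels. Xist, the RNA made from an inactive X chromosome, had 3 and 2 counts in the WT-labelled libraries and 2310 and 1411 in the KO-labelled ones. Xist thus differed with the label in every library. A difference in sex between the groups cannot be told apart from the label in any result below. Hepatocyte markers carried 145000 and 144000 summed CPM in WT and 124000 and 129000 in KO, with 6 of 10 markers higher, 3 lower and a median log2 fold change of 0.33, so the lower sum rests on abundant genes such as Trf and Apoa1. Summed markers of proliferating cells were 72.3 and 73.7 CPM in WT and 39.8 and 46.6 in KO (7 of 8 lower), and those of cholangiocytes were 183 and 187 against 111 and 114 (3 of 5 tested lower). Endothelial markers summed to 300 and 292 CPM in WT and 251 and 221 in KO (5 of 8 lower, and 3 without EP300 WT replicate 1), stellate and fibroblast markers to 291 and 282 against 188 and 181 (4 of 8 lower, 1 without EP300 WT replicate 1 and 2 without EP300 WT replicate 2), and erythroid markers to 13.0 and 12.7 against 57.6 and 53.2 (2 of 4 tested higher, and 1 without EP300 WT replicate 2). Macrophage markers summed to 629 in both WT libraries and to 562 and 566 in KO (3 of 8 higher, 2 lower, median 0.00). Neutrophil markers summed to between 9.94 and 16.6 CPM and lymphocyte markers to between 1.22 and 2.01 CPM in any library. No listed marker was at 0 in all 4 libraries, and among all genes tested 16.7% were higher and 17.5% lower. The part of these other cell types in the results on ribosomal proteins was not tested.

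A cytosolic ribosome is built from ribosomal RNA and a fixed set of proteins, 1 copy of most of them in each particle, so their genes are usually transcribed at matched levels from many separate chromosomal sites. Their mRNAs begin with a run of pyrimidines, the 5′ TOP motif, through which mTORC1 and the RNA-binding protein LARP1 set their translation and stability. In hepatocytes, which export large amounts of plasma protein, and in growing or dividing cells, ribosome production is among the main costs of the cell. Ribosomal protein mRNAs are short and abundant and have been copied back into the genome many times, and the resulting processed pseudogenes can be nearly identical to the gene.

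Nearly the whole family was lower in the KO-labelled libraries, by a similar amount. At an adjusted p below 0.05 in the edgeR test over all genes, 75 of the 83 members were lower, against 17.5% of all genes tested, and 2 were higher, against 16.7%. The median log2 fold change of the members was -0.41, which put the KO level at 75.4% of WT, while the median over all 14200 genes was -0.01. The members were close together: 55 lay within 0.1 and 73 within 0.2 of that median on the log2 scale, with quartiles at -0.48 and -0.34. Without EP300 WT replicate 2 the number of lower members was 45, and all 75 kept a negative value in every alternative tried. In bulk RNA such a difference does not separate less RNA per cell from a change in which cells were present.

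The libraries showed the same order for the family as a whole. Members took 1.46% and 1.5% of all counts in the WT libraries and 1.02% and 1.11% in the KO libraries. Their summed level was 14300 and 14700 CPM in WT and 10500 and 11400 CPM in KO, so the groups did not overlap. In 77 members both KO libraries lay below both WT libraries, against 33.5% of all genes tested, in 3 both lay above, against 32.9%, and in 3 the groups overlapped. The KO libraries were not equal to each other: KO replicate 2 was above KO replicate 1 in 77 of 83 members, with a median log2 difference of 0.13. WT replicate 2 was above WT replicate 1 in 63 members, with a median difference of 0.05. Members were spread over 19 chromosomes, with 14 on chromosome 7 as the most on any.

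**Figure D1:**
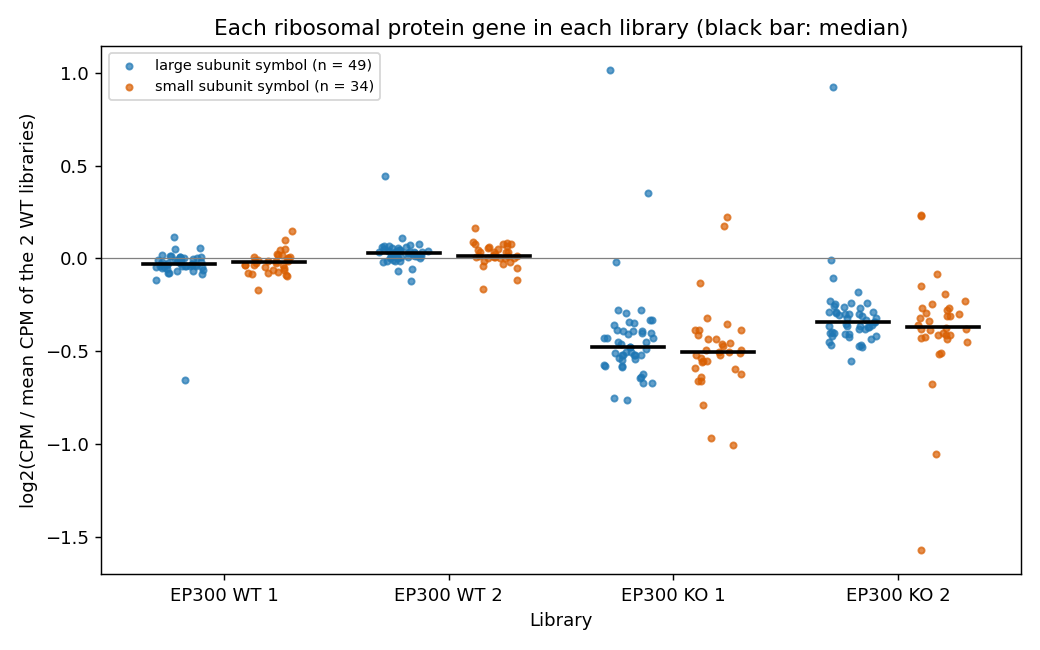
Level of each ribosomal protein gene in each of the 4 libraries, as log2 of its CPM over the mean CPM of both WT libraries, with large subunit genes (49) in blue, small subunit genes (34) in orange and black bars at the medians. Both KO libraries sit below the WT libraries in both subunits, KO replicate 1 lower than KO replicate 2, and the few points above 0 in the KO libraries include Rpl36al and Rps27l.

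The large and small subunits had similar medians, and their counts are read beside 17.5% lower and 16.7% higher among all genes tested. Of the 49 large subunit members 46 were lower, 1 was higher and 2 did not pass, with a median of -0.40. Of the 34 small subunit members 29 were lower, 1 was higher and 4 did not pass, with a median of -0.43. Large subunit members summed to 8280 and 8550 CPM in WT and 6120 and 6680 in KO, and small subunit members to 5990 and 6110 CPM in WT and 4360 and 4710 in KO. In each subunit the KO libraries lay below the WT libraries without overlap. The difference between the subunits was not tested. The largest falls were in the small subunit and reached -1.26, whereas no large subunit member went below -0.65.

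Among the large subunit genes, the acidic stalk proteins, which recruit the elongation factors, fell by similar amounts. Rplp0, the stalk base, had 584 and 575 CPM in WT and 416 and 458 CPM in KO (log2 fold change -0.41 ± 0.06 SE, edgeR adjusted p = 4.75e-05). Rplp1 and Rplp2, which bind to it as dimers, had log2 fold changes of -0.37 and -0.41. In all of them the KO libraries were the lower ones. Rpl5 and Rpl11 travel with 5S ribosomal RNA and, when assembly is disturbed, bind MDM2. Rpl5 had 271 and 275 CPM in WT and 175 and 198 in KO (log2 fold change -0.54 ± 0.06 SE, edgeR adjusted p = 7.1e-06). Rpl11 fell less, by 0.29 on the log2 scale, from 183 and 198 CPM to 148 and 162 CPM, and lost its call without EP300 WT replicate 2 (edgeR adjusted p = 0.155). Rpl10, which joins the large subunit late in its assembly, fell by 0.33, from 377 CPM in both WT libraries to 288 and 313 CPM in KO, with an adjusted p of 0.0525 in edgeR without EP300 WT replicate 2.

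The largest falls in the large subunit were in Rpl36a, Rpl23a, Rpl13, Rpl5 and Rpl30. Rpl36a (chrX:134585654-134588062) had 72.2 and 76.1 CPM in WT and 43.8 and 50.6 CPM in KO, with no overlap (log2 fold change -0.65 ± 0.08 SE, edgeR adjusted p = 8.18e-06). Rpl23a, which lies at the exit of the peptide tunnel, had 81.8 and 85.4 CPM in WT and 49.7 and 60.6 CPM in KO (-0.60 ± 0.08 SE). In Rpl23a, as in most of the family, KO replicate 1 was the lowest library. Rpl13 and Rpl30 had log2 fold changes of -0.56 and -0.54. Rpl36a is 1 of 4 members on the X chromosome, and the others fell too: Rps4x by 0.54, Rpl39, which lines the exit tunnel, by 0.49, and Rpl10 by 0.33. The call of Rpl39 was lost without EP300 WT replicate 2 (edgeR adjusted p = 0.102). Xist differed between the same libraries, as given above. The part of Xist, or of a difference in sex, in the values of these and the other members was not tested.

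In the small subunit, Rps27a had the largest fall of the family. The gene (chr11:29545846-29548109, minus strand) codes for ubiquitin fused to the ribosomal protein eS31, so its mRNA supplies both the ribosome and the cell's ubiquitin. It had 145 and 117 CPM in WT and 65.4 and 44.1 CPM in KO (log2 fold change -1.26 ± 0.13 SE, edgeR adjusted p = 1.68e-06). Both KO libraries were far below both WT libraries, and here, unlike in most members, KO replicate 2 was the lower of the pair. The fall ranged from -1.56 to -0.99 over the alternatives. Ubb, a polyubiquitin gene, had a value closer to 0, with 563 and 595 CPM in WT and 454 and 510 CPM in KO (-0.26 ± 0.06 SE, edgeR adjusted p = 0.00349, and 0.185 without EP300 WT replicate 2). Rps27a shares 8.1% of its exon bases with Clhc1, which had at most 3 counts in any library.

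Rps3a1 and Rps12 followed. Rps3a1 is taken up in detail with its pseudogene copies. Rps12 (chr10:23785183-23787275), a protein of the small subunit beak, had 95.4 and 100 CPM in WT and 56.7 and 61.2 CPM in KO. The groups were well apart (log2 fold change -0.73 ± 0.07 SE, edgeR adjusted p = 4.98e-07), and the value stayed between -0.80 and -0.66 in every alternative. Rps12 hosts small nucleolar RNA genes in its introns and shares 13.7% of its exon bases with other gene models, among them Snora33 and Snord100. Rps18, at the head of the subunit, had 241 and 245 CPM in WT and 154 and 171 CPM in KO (-0.58 ± 0.06 SE), and Rps15a had 73.4 and 81.9 against 50.5 and 54.4 CPM (-0.57 ± 0.08 SE). Rps6, the main substrate of the S6 kinases, fell by 0.40 from 319 and 297 to 219 and 247 CPM, close to the family median. Rpsa, also known as a laminin receptor precursor, fell by 0.38 from 540 and 529 to 390 and 430 CPM.

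Levels within the family spanned a wide range when compared per kilobase of transcript. The median member had 203 CPM per kb in WT and 149 CPM per kb in KO. Rps2 was at the top with 704 CPM per kb in WT, followed by Rpl41, the smallest ribosomal protein, at 565, Rplp1 at 496, Rpl10 at 472 and Rps18 at 434 CPM per kb. At the bottom were Rpl24 at 1.01, Rpl36al at 2.83, Rps10 at 4.73, Rpl13a at 10.4 and Rps19bp1 at 16.1 CPM per kb. Rpl24, Rps10 and Rpl13a code for constitutive ribosomal proteins, yet were counted far below the rest. In these genes the annotation places other gene models over the same exons: 47.0% of the exon bases of Rpl24 are shared with Gm28037, 28.7% of those of Rps10 with Gm15420 and a read-through model, and 35.4% of those of Rpl13a with Gm45713 and 2 small RNA genes. Gm28037 and Gm45713 had 0 counts in all 4 libraries, and Gm15420 at most 1. Rpl35 and Rpl23a share more of their exon bases, 66.2% and 62.3%, and stood at 82 and 149 CPM per kb. These shares are of the exon bases of all transcripts of a gene joined, on either strand, not of the transcript whose length CPM per kb uses. In Rps10, 664 of 2311 joined exon bases are shared, while that transcript has 498 bases. The percentages therefore do not give the part of that transcript that is covered. The part of the overlaps in the low counts was not tested. Among the 44 members that share no exon base with another gene, 40 were lower, against 17.5% of all genes tested. Their median was -0.43.

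**Figure D2:**
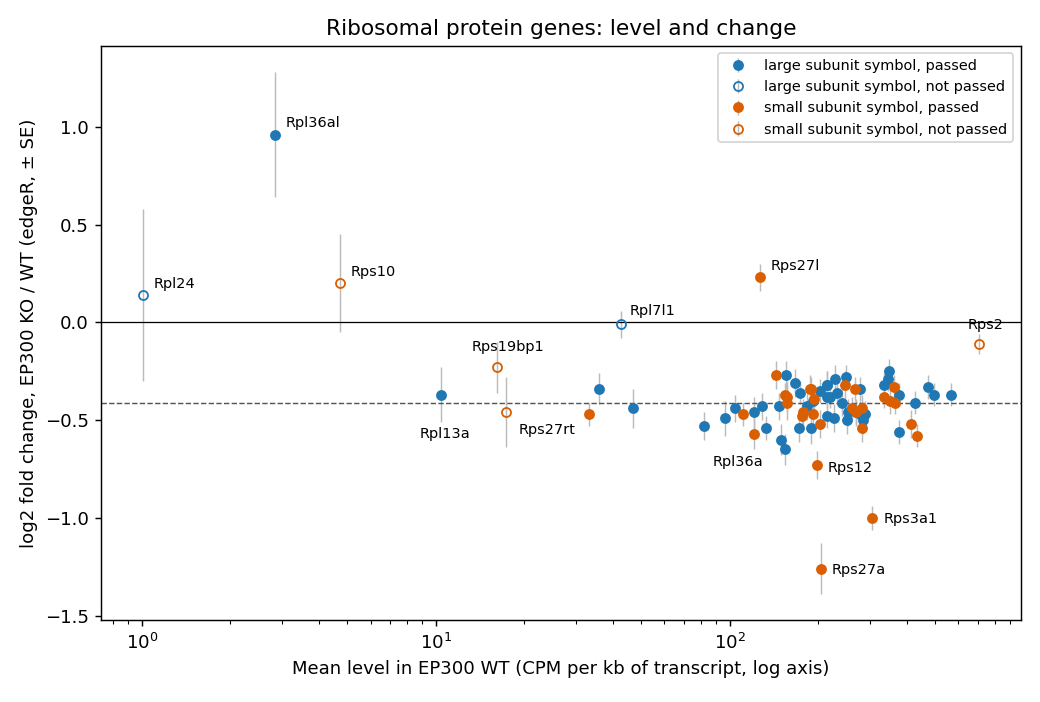
Log2 fold change (KO over WT, edgeR, error bars ± SE) of the 83 ribosomal protein genes against their mean level in the WT libraries in CPM per kb of transcript on a log axis, with filled points for genes at an adjusted p below 0.05 and a dashed line at the member median of -0.41. Most points form a band around that line at 80 CPM per kb and above, Rps27a, Rps3a1 and Rps12 lie below the band, and the genes near or above 0 are Rps2, Rps27l and members of low level.

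Rps2 was the main exception among abundant members. It codes for uS5, at the entry of the mRNA channel, and it had 685 and 721 CPM in WT and 641 and 664 CPM in KO. The KO libraries were still below the WT libraries, but by little (log2 fold change -0.11 ± 0.05 SE, edgeR adjusted p = 0.139). The call depended on scaling and libraries, with an adjusted p of 0.0195 under library size alone and 0.0114 without EP300 KO replicate 2. The difference from the rest of the family was not tested. The remaining members that did not pass were Rps27rt (-0.46 ± 0.18 SE, edgeR adjusted p = 0.0625, and 0.0278 without EP300 KO replicate 2, with a pass under library size alone too), Rps19bp1 (-0.23 ± 0.13 SE), Rpl7l1, Rpl24 and Rps10. Rps27rt was named after its values were seen, and its negative value is close to that of Rps27, to which its coding sequence is 100% identical over 252 bases. Reads from these genes can be told apart only outside the coding sequence, so the split between them is uncertain.

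The paralogs of ribosomal protein genes were set beside their partners, with no test of the difference within a pair. Rps27l, a paralog of Rps27 that p53 can induce, was higher in KO, with 59.8 and 66.8 CPM in WT and 74.0 and 74.5 CPM in KO (log2 fold change 0.23 ± 0.07 SE, edgeR adjusted p = 0.0216), while Rps27 fell by 0.38, from 51.8 and 56.3 CPM to 38.4 and 44.5 CPM (adjusted p = 0.131 without EP300 WT replicate 2). Neither pair of libraries overlapped, but the rise of Rps27l lost its call in 5 alternatives, among them DESeq2 (adjusted p = 0.0965), library size alone (0.0947) and the fits without either WT library (0.297 and 0.055). Their coding sequences are 79.1% identical over 249 aligned bases, so reads could be assigned. Ccng1, a p53 target, rose with 26.0 and 23.8 CPM in WT and 44.1 and 31.8 CPM in KO (0.61 ± 0.12 SE, edgeR adjusted p = 0.00104, and 0.0977 without EP300 WT replicate 2), whereas Trp53 itself fell by 0.32 (adjusted p = 0.0123, and 0.122 without the same library). Of 11 listed genes of ribosomal stress and p53, 1 was higher and 1 lower, against 16.7% and 17.5% of all genes tested. Their median was -0.05.

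Rpl36al, the retrocopy paralog of Rpl36a on chromosome 12, had 18 and 39 counts in WT and 52 and 49 counts in KO. WT replicate 1 was the lowest library by a wide margin, and the KO libraries were above both WT libraries (log2 fold change 0.96 ± 0.32 SE, edgeR adjusted p = 0.0297). At these counts the call was lost with DESeq2 (adjusted p = 0.192) and without EP300 WT replicate 1, where the value dropped to 0.53 (adjusted p = 0.295). Rpl36a itself fell by 0.65 and shares 87.7% of its coding bases with Rpl36al. Rpl22l1, a paralog of Rpl22 that is active in development and blood cells, fell with its partner: Rpl22l1 had 24.6 and 27.3 CPM in WT and 18.1 and 20.2 in KO (-0.44 ± 0.10 SE, edgeR adjusted p = 0.00267), and Rpl22 had 70 and 77 against 60.6 and 61.3 CPM (-0.27 ± 0.07 SE, adjusted p = 0.00758). Neither group overlapped in either gene, and both calls were lost without EP300 WT replicate 2 (edgeR adjusted p = 0.12 and 0.217). Rpl7l1, a relative of Rpl7 with a role in ribosome assembly, had 53.7 and 58.0 CPM in WT and 55.2 and 55.5 CPM in KO (-0.01 ± 0.07 SE, adjusted p = 0.907), while Rpl7 fell by 0.38. The KO values of Rpl7l1 lay within the range of its WT values.

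Copies of the genes in the genome were counted separately by the authors. By sequence, 966 pseudogene models matched 77 of the 83 members at 90% identity or more over at least 80% of the coding sequence, with a median of 9 copies per matched member and 76 for Rpl21. Of these models 529 had 0 counts and 206 had 10 or more in total. The copies held 5.12% and 5.04% of the joint counts of members and copies in WT and 5.49% and 5.61% in KO. Where copies were tested, 32 of 110 were lower and 7 higher, against 17.5% and 16.7% of all genes tested. Their median was -0.41, the same as for the members. Reads at a near-identical copy can have come from the member, so the matching medians are not separate observations. Adding each member's copies to its own counts gave 75 members lower and 2 higher at a median of -0.41, not the same 75, since Rps10 gained the call and Rpl13a lost it (edgeR adjusted p = 0.0572). It moved 3 members by more than 0.2 on the log2 scale: Rps3a1, Rps10 and Rpl24.

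**Figure D3:**
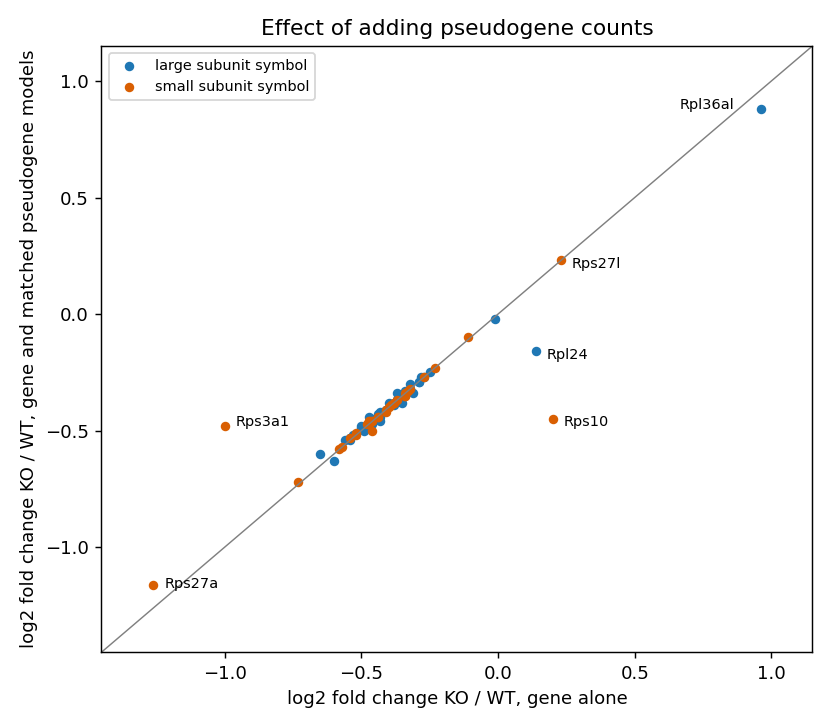
Log2 fold change (KO over WT, edgeR) of each ribosomal protein gene from its own counts on the horizontal axis and with the counts of its sequence-matched pseudogene models added on the vertical axis, with the line of equality. Most genes lie on the line, Rps3a1 lies above it at -0.48 instead of -1.0, and Rps10 and Rpl24 lie below it.

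Rps3a1 (chr3:86137940-86142702, minus strand), which codes for eS1 on the solvent side of the small subunit, had the lowest p-value of all members. It had 292 and 306 CPM in WT and 153 and 144 CPM in KO (log2 fold change -1.0 ± 0.06 SE, edgeR adjusted p = 2.52e-09). Alongside it, a pair of processed pseudogene models went from nearly nothing to high counts in the KO libraries. Rps3a2 (chr14:88123017-88123808, 99.5% identical to the coding sequence) had 15 and 8 counts in WT and 720 and 733 in KO (log2 fold change 6.11 ± 0.17 SE, edgeR adjusted p = 2.77e-13). Rps3a3 (chr13:108670603-108671397, 98.99% identical) had 27 and 19 counts in WT and 405 and 435 in KO (4.32 ± 0.17 SE, adjusted p = 1.53e-11). In all of these the groups lay far apart, and the replicates of a label were close. Copies held 0.704% of the joint counts of Rps3a1 and its 7 matched copies in WT and 30.9% in KO. With the copies added, the fall became -0.48 ± 0.06 SE (edgeR adjusted p = 7.39e-06), near the family median.

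The coding sequence of Rps3a1 has 792 bases without the stop codon, and Rps3a2 differs from it at 4 of them: T216C, T534C, A645T and T668C, with positions counted from 1 at the first base of the start codon, the base of Rps3a1 first and that of the copy last. Rps3a3 differs at 9 positions, of which T216C and T534C are shared with Rps3a2. T216C is present in 6 and T534C in 7 of the 7 matched copies. The stretches of 41 bases around both shared positions are printed because a read over Rps3a1 can be separated from the copies only at such bases. They are from the GRCm38 transcripts of GENCODE M21 in the direction of the coding sequence, each within 1 exon, with the differing base in capitals.
Rps3a1 bases 196 to 236, chr3:86141357-86141397, minus strand: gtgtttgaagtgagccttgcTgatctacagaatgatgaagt
Rps3a2, chr14:88123573-88123613, minus strand: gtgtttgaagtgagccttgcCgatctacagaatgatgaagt
Rps3a3, chr13:108670798-108670838, plus strand: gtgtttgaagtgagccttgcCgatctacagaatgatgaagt
Rps3a1 bases 514 to 554, chr3:86139049-86139089, minus strand: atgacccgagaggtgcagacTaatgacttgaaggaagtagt
Rps3a2, chr14:88123255-88123295, minus strand: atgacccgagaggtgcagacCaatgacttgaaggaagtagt
Rps3a3, chr13:108671116-108671156, plus strand: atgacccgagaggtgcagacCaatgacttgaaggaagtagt
The printed stretches of Rps3a2 and Rps3a3 are identical to each other. Counts per gene do not show which bases the reads carried at these positions, so whether the pseudogene counts came from the copies or from Rps3a1 transcripts was not tested.

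**Figure D4:**
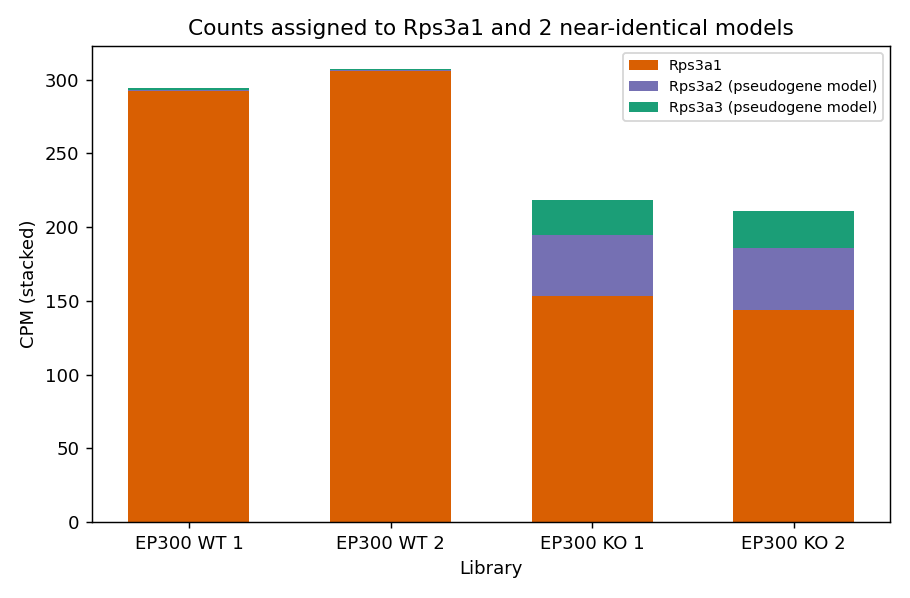
Counts assigned to Rps3a1 (orange) and to the pseudogene models Rps3a2 (purple) and Rps3a3 (green), stacked, in CPM for each of the 4 libraries. In both WT libraries almost all of the bar is Rps3a1, at 292 and 306 CPM, and in both KO libraries the copies add 41.7 and 42.1 CPM (Rps3a2) and 23.4 and 25 CPM (Rps3a3).

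Rps10, a protein at the mRNA entry of the small subunit, was counted mostly at a copy. The gene had 48 and 42 counts in WT and 46 and 48 in KO, which overlap as counts, while in CPM both KO libraries (2.66 and 2.76) were above both WT libraries (2.53 and 2.18). The difference did not pass (log2 fold change 0.20 ± 0.25 SE, edgeR adjusted p = 0.581). Its copy Rps10-ps2 (chr16:20822145-20822640, 98.99% identical) had 840 and 939 counts in WT and 534 and 622 in KO (-0.48 ± 0.09 SE, adjusted p = 0.000513, and 0.0698 without EP300 WT replicate 2). Its 2 matched copies held 95.4% of the joint counts in WT and 92.7% in KO. The sum of gene and copies fell by 0.45 ± 0.08 SE (edgeR adjusted p = 0.000563). Rpl24, next to 5 copies, went from 0.14 ± 0.44 SE to -0.16 ± 0.30 SE with them, and passed in neither case. Gm9794, a copy of Rpl23 that is 99.76% identical, had 1421 and 1504 counts in WT and 865 and 985 in KO, and its log2 fold change of -0.52 was close to the -0.43 of Rpl23. For Rps27a, the copies held 3.33% of the joint counts in WT and 9.54% in KO, and the fall with them was -1.16 ± 0.12 SE. Gm8430, the copy with the most counts in KO, rose from 33 and 57 to 63 and 85 counts (0.86 ± 0.27 SE, edgeR adjusted p = 0.0221, but 0.263 without EP300 WT replicate 1 and 0.09 without EP300 KO replicate 2).

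RefSeq start sites on GRCm38.p6 were found for 63 members, with 74 windows from 250 bases before to 50 bases after the start. Shown here are the 70 bases before and 20 after the start for Rps12 and Rps18, which had large falls, for Rplp0, near the family median, and for Rps2, which did not pass, and Rps27l, which was higher. Capitals mark the longest unbroken run of C and T in the printed window, the first where lengths tie, as in Rps27l. A TOP motif begins at the first base of the transcript.
Rps12, chr10:23787190-23787279, minus strand: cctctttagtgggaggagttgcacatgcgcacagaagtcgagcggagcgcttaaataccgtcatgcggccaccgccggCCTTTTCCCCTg
Rps18, chr17:33955646-33955735, minus strand: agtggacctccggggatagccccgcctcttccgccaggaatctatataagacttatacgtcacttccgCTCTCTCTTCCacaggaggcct
Rplp0, chr5:115559397-115559486, plus strand: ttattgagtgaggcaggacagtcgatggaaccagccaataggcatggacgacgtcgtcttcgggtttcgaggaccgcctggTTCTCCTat
Rps2, chr17:24719993-24720082, plus strand: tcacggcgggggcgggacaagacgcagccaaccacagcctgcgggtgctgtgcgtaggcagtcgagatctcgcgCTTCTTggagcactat
Rps27l, chr9:66946016-66946105, plus strand: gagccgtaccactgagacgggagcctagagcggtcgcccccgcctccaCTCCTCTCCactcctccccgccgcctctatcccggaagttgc
The run is 11 bases in Rps12 and Rps18, 7 in Rplp0, 6 in Rps2 and 9 in Rps27l, where it begins 22 bases before the start used here. Rps27l has 2 windows, of which 1 is printed, so this position holds for that start only. Each other printed gene has 1 window. In Rps18 it begins 2 bases before the start, and in Rps12, Rplp0 and Rps2 it begins at bases 9, 12 and 5 of the transcript as annotated.

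Across all member windows, a run of at least 9 C or T bases on the transcribed strand within the last 100 bases was found in 74.3%, against 25.3% of all 32851 windows of the same length, which include genes silent in liver. Of 10 motifs searched on both strands, some of them chosen after looking at these windows, the ETS-type motif CCGGAAG was in 35.1% of member windows and 8.86% of all, and the GC box GGGCGG in 62.2% and 35.7%. The YY1-type motif AAGATGG was in 16.2% and 6.34%, and CTTTCC, which can lie within a pyrimidine run, in 51.4% and 26.6%. The TATA box TATAAA was in 9.46% of member windows and 13.6% of all. A match describes these letters only and does not show that a factor was bound.

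Genes that share the TOP motif or act in the same pathway were compared as lists. Among 24 translation factors and related proteins with TOP mRNAs, 16 were lower and 1 higher, against 17.5% and 16.7% of all genes tested. Their median was -0.25, and 22 of 24 had a negative value. Without either WT library the number lower was 7 (without replicate 1) or 6 (without replicate 2). Nap1l1, a nucleosome assembly protein, had 76.8 and 80.4 CPM in WT and 47.1 and 46.6 CPM in KO (log2 fold change -0.75 ± 0.07 SE, edgeR adjusted p = 4.41e-07). Eef1b2, an exchange factor for elongation factor 1A, had 142 and 143 CPM in WT and 96.7 and 103 CPM in KO (-0.51 ± 0.06 SE, edgeR adjusted p = 8.57e-06). In both the groups lay far apart. Eif4a2, an initiation helicase, was the gene that rose, with 178 and 189 CPM in WT and 222 and 201 CPM in KO (0.21 ± 0.06 SE, adjusted p = 0.0204, and 0.266 without EP300 WT replicate 1). Rack1 and Fau, ribosomal proteins outside the symbol rule, also belong to this list: Rack1 fell by 0.50 from 338 and 328 to 225 and 245 CPM, and Fau fell by 0.23 (adjusted p = 0.148 without EP300 WT replicate 2).

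Counts for the snoRNA host genes with TOP RNAs are read beside 16.7% higher and 17.5% lower among all genes tested. These genes, most of which code for no protein, had a median of -0.04. That median was 0.07 without EP300 KO replicate 1 and -0.18 without EP300 KO replicate 2. Of 9 tested, 0 passed in edgeR (1 without EP300 KO replicate 2), 1 had an unadjusted p below 0.05, and DESeq2 called 0. Gas5 had 54.0 and 59.6 CPM in WT and 55.4 and 60.0 in KO. A difference between these lists and the ribosomal proteins was not tested.

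Ribosome biogenesis factors were mixed, to be read beside 16.7% higher and 17.5% lower among all genes tested. Of 58 tested, 5 were higher and 5 lower, with a median of 0.03, and the counts were 0 and 2 without EP300 WT replicate 1 and 2 and 1 without EP300 WT replicate 2. Npm1, the nucleolar chaperone nucleophosmin, which is on the TOP list too, fell by 0.45 from 136 and 139 to 96.1 and 105 CPM (edgeR adjusted p = 4.96e-05). Gar1, a protein of the H/ACA pseudouridylation particle, fell by 0.63 from 5.16 and 8.42 to 5.09 and 3.68 CPM, with an adjusted p of 0.0482 that rose to 0.625 without EP300 WT replicate 2. Rrp9, of the U3 particle, rose by 0.56, from 9.22 and 9.61 to 13.2 and 14.5 CPM (edgeR adjusted p = 0.00222, and 0.0507 without EP300 WT replicate 1), and Nop10, another H/ACA protein, rose by 0.32 (0.131 without EP300 WT replicate 2). Ncl and Fbl, the abundant nucleolar proteins nucleolin and fibrillarin, did not pass (-0.12 and 0.03). Of 20 RNA polymerase I subunits and factors, 0 passed in edgeR, 1 had an unadjusted p below 0.05, DESeq2 called 0, and the median was -0.12. With 1 library left out the median lay between -0.08 and -0.05, and without EP300 KO replicate 1 1 gene was higher and 2 were lower.

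**Figure D5:**
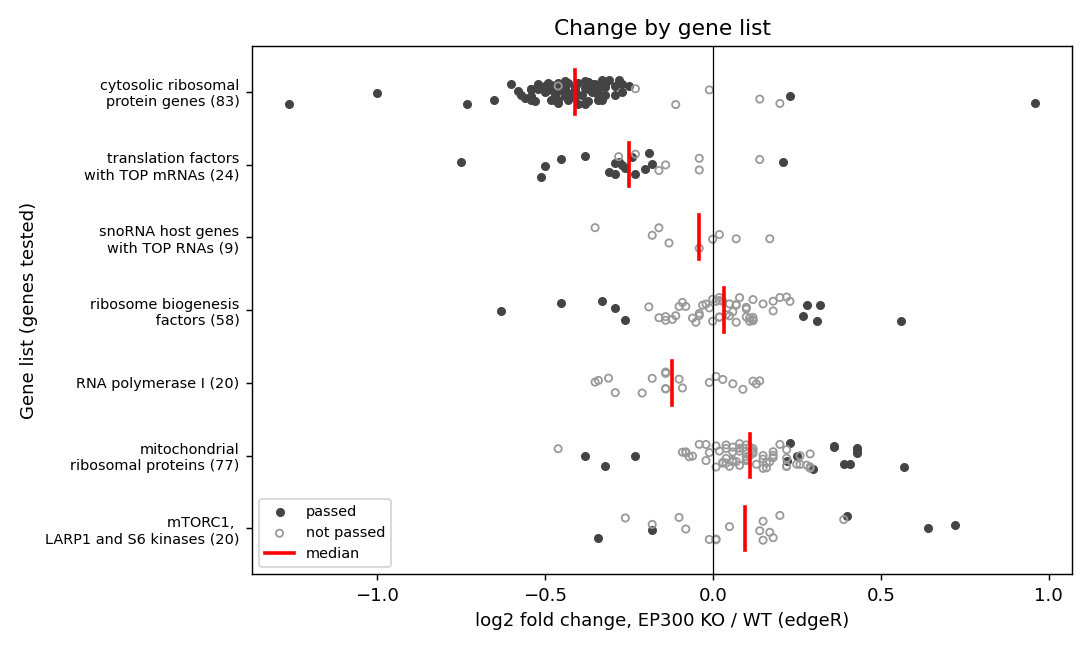
Log2 fold change (KO over WT, edgeR) of each tested gene in 7 lists, with filled points at an adjusted p below 0.05, open points for genes that did not pass and red bars at the medians. The cytosolic ribosomal proteins (median -0.41) and TOP translation factors (-0.25) lie mostly left of 0, and the biogenesis, mitochondrial ribosomal and mTORC1 lists lie around or right of it.

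Mitochondrial ribosomal protein genes, whose products serve the separate ribosome of the mitochondrion, had a median above 0. Of 77 tested, 12 were higher, against 16.7% of all genes tested, and 3 lower, against 17.5%. The median was 0.11, from 0.07 to 0.16 with 1 library left out, with summed levels of 1590 and 1630 CPM in WT and 1720 and 1810 CPM in KO. The number higher was 4 without EP300 WT replicate 1 and 4 without EP300 WT replicate 2, and DESeq2 called 5. Mrpl18, which had the largest rise, went from 29.5 and 28.4 to 40.9 and 44.9 CPM (log2 fold change 0.57 ± 0.08 SE, edgeR adjusted p = 5.98e-05), and Mrpl38 from 70 and 75.7 to 97.5 and 95.6 CPM (0.41 ± 0.07 SE, adjusted p = 0.00017). Mrpl52 and Mrpl23 had the largest falls, of 0.38 and 0.32, and lost the call with DESeq2 (adjusted p = 0.104 and 0.2) and without EP300 WT replicate 2 (edgeR adjusted p = 0.147 and 0.392).

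Among 20 genes of the mTORC1, LARP1 and S6 kinase pathway, 3 were higher and 2 lower, against 16.7% and 17.5% of all genes tested. Their median was 0.09. Without EP300 WT replicate 1 the counts were 1 and 1, and without EP300 WT replicate 2 they were 2 and 0. Rps6kb2, an S6 kinase, rose by 0.64 from 15.2 and 14.0 to 22.2 and 23.4 CPM (edgeR adjusted p = 0.000129), and Tbc1d7, a subunit of the TSC complex that restrains mTORC1, rose by 0.72 from 2.79 and 4.05 to 5.85 and 5.46 CPM (adjusted p = 0.0155, and 0.2 without EP300 WT replicate 1). Eif4ebp1, an inhibitor of cap-dependent initiation, fell by 0.34 (adjusted p = 0.00151, and 0.0889 without EP300 WT replicate 2), and Larp1 fell by 0.18, from 150 and 146 to 131 and 130 CPM (edgeR adjusted p = 0.0284, and 0.27 without EP300 WT replicate 1). Mtor itself had a log2 fold change of 0.15 and did not pass. Of the 9 S6 kinase genes tested that the symbol rule had left out, 1 was higher and 2 lower.

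Of 11 factors reported to act at ribosomal protein gene promoters, 2 were higher and 1 lower, against 16.7% and 17.5% of all genes tested. Their median was -0.01. Myc, which drives ribosome production, had 34.2 and 31.3 CPM in WT and 45.7 and 57.3 CPM in KO, higher in both KO libraries (log2 fold change 0.65 ± 0.10 SE, edgeR adjusted p = 8.84e-05). Its antagonist Mxi1 rose by 0.41, from 17.1 and 18.9 to 24.5 and 23.3 CPM (adjusted p = 0.00424, and 0.104 without EP300 WT replicate 1). Sp1, which binds GC boxes, fell by 0.30, from 40.3 and 44.0 to 34.6 and 33.9 CPM (adjusted p = 0.00904, and 0.199 without EP300 WT replicate 2).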

How the data were processed

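Whole-number read counts per gene were deposited by the authors in 1 table for the EP300 experiment; 4 further columns that match no sample were not used, nor were the 6 tables of the diet experiment. Per the submitters' processing notes, STAR, HTSeq and DESeq2 were used with mm10, without a role for each. Which annotation and strand setting were used, and how reads that match several places were treated, is not given in the sources used in these analyses. Per the labels the kit was TruSeq RNA, which does not mark strand. Treatment of multiply mapping reads bears directly on genes with near-identical copies.

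Symbols and coordinates came from GENCODE M21 (55144 of 55385 identifiers matched). Counts were tested with edgeR 4.0.16 in R 4.3.3 (the quasi-likelihood F test with group alone in the model and 2 residual degrees of freedom, after TMM scaling and filterByExpr at 10 counts) with Benjamini-Hochberg adjustment over all 14200 genes and a threshold of 0.05. Each standard error was obtained as the size of the log2 fold change over the root of its F statistic, and the common biological coefficient of variation was 5.47%. CPM uses the TMM-scaled library size, and CPM per kb divides it by the length of 1 principal transcript, which understates a gene such as Rps20 whose principal transcript is long. Replicates of a label differed beyond sampling noise (chi-square per degree of freedom 2.72 in WT and 5.94 in KO), so each library counted once. Pseudogene models were matched to coding sequences with blastn 2.17.0, and promoter windows are RefSeq's. On simulated counts for this comparison (13980 unchanged genes), edgeR found 82% of 50 genes changed 1.5-fold, 96% of 50 changed 2-fold and 100% of those changed 4-fold or 8-fold. False calls numbered 8. All genes were simulated with the same dispersion, and the changed genes were drawn from those with a mean above 50 counts. These rates therefore do not cover members with fewer counts, such as Rpl24, Rpl36al and Rps10, or genes that vary more.

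The members and lists were chosen with earlier results of these data known, so counts are descriptions read beside the share of all genes. Named members were those with the largest changes, paralog pairs, the highest and lowest levels per length and those on the X chromosome; names outside that rule were chosen after their values were seen. In each pathway list up to 2 rises and 2 falls were named. The mitochondrial list was added after the data were seen, as was adding sequence-matched copies. Alternatives were DESeq2 1.42.0, limma-voom (limma 3.58.1), other scalings and filters, a replicate block, pseudogene counts added, and each library left out.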

Additional observations from a re-analysis of the deposited data

How the results depend on the processing

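Over 14 settings and 28 named members, 360 of 392 alternative values kept direction and side of the threshold, 24 lost the call, 2 gained it with the same sign and 6 changed sign. Among those that changed sign, Rps10 also gained the call in both settings that added pseudogene counts. The number of lower members was 73 with DESeq2 and 54 with no filter, and ranged from 45 to 77 when 1 library was left out. The number of higher members was 0 with DESeq2, 1 with library size alone and 0 with no filter, and ranged from 0 to 2 with 1 library left out. Of the 75 lower members 44 passed in every alternative. The shares of 17.5% lower and 16.7% higher among all genes tested belong to the main fit. Shares of all genes in these other settings are not given, here or above. A loss of calls among members is therefore not set beside that among all genes. With 1 library left out, the median log2 fold change ranged from -0.49 to -0.34 over all members, from -0.47 to -0.33 over the large subunit and from -0.50 to -0.35 over the small subunit, highest without EP300 KO replicate 1 and lowest without EP300 KO replicate 2; where an arm then held 1 library, that library was assumed to vary like the other group. With 1 library left out, Rpl7l1 ranged from -0.06 to 0.05 (0.05 without WT replicate 2 and 0.00 without KO replicate 1) and Rpl24 from -0.09 (without KO replicate 1) to 0.35; the cause was not tested. With sequence-matched copies added, Rps10 became -0.45 and Rpl24 -0.16, and with copies named as pseudogenes of the gene Rps10 became -0.45, because their counts enter the sum. Replicate numbers are shared by the groups, but no label ties same-numbered libraries. Across the genes tested, the difference between the WT replicates was not correlated with that between the KO replicates (r = -0.00075). With the replicate number as a block, 76 members were lower and 2 higher, with a median of -0.41. The member gained was Rps27rt. Scaling by library size alone moved the median of all genes to -0.07. Depth limits Rpl36al and Rpl24, which have few counts with or without their copies. Most joint counts of Rpl24 and Rps10 are at their copies.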
